A study of Mus musculus with 6 samples.

Results

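The mitochondrial ribosomal protein genes were followed in bone marrow stromal cells (BMSCs), adherent marrow cells that can form bone or fat, kept in osteogenic medium. The members are all genes with a symbol of the form Mrpl or Mrps, a number and at most 1 further letter, on probe sets paired with a single gene symbol. Where a gene had several such probe sets, the brightest by its 6-array mean was read. This gave 77 members among 19938 tested genes, 48 named for the large subunit (Mrpl) and 29 for the small subunit (Mrps). All 77 were tested, with no filter on dim values. Of 78 RefSeq genes that carry such a symbol, the remaining 1 is Mrpl53. The annotation pairs Mrpl53 with a probe set shared with Ccdc142, so it was not counted, and that probe set did not pass the test (log2 change 0.06, SE 0.033, adjusted p = 0.21 over all listed probe sets).

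Mammalian mitochondria keep their own ribosomes, which translate the few proteins encoded by mitochondrial DNA, all of them subunits of the respiratory chain and ATP synthase. The ribosomal RNAs come from mitochondrial DNA, but every protein of both subunits is encoded in the nucleus, made in the cytosol and imported. Many of these proteins descend from those of the bacterial ribosome, and others were added later in the mitochondrial lineage. Osteoblasts, like other matrix-secreting cells, use both glycolysis and oxidative phosphorylation.

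The groups were WT (wild type, 3 arrays) and KO188 (mice without microRNA miR-188, 3 arrays), each labelled as biological replicates 1 to 3. All mice were C57BL/6 and 6 months old. The osteogenic medium, the same for both groups, held 0.05 mM ascorbate-2-phosphate, 10 mM beta-glycerophosphate and dexamethasone at 100 nM. The labels do not say whether each array stands for its own mouse or culture, nor whether the knockout was confined to 1 tissue. P-values therefore measure the spread between these samples, which may be technical. No label names a batch shared by both groups, so genotype and a batch or culture difference cannot be told apart.

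Across tested genes, which are no independent replicates, Pearson r ran from 0.9988 to 0.9993 within groups and from 0.9909 to 0.9912 between them. The probe set of Mir188 read 7.15 ± 0.01 in WT and 7.08 ± 0.05 in KO188 (SD, n = 3 each; adjusted p = 0.24), and it is not known from the labels whether it lies in the deleted stretch, so it does not check the knockout. Of 12 stromal and osteoblast markers 7 rose in KO188 and 1 fell. The marker that fell, Nt5e, read 9.28 ± 0.05 in WT and 8.44 ± 0.09 in KO188 (SD, n = 3 each). The largest rise was that of Alpl, from 9.37 ± 0.03 in WT to 11.45 ± 0.03 in KO188 (SD, n = 3 each). The stromal receptor gene Pdgfra read 9.92 ± 0.02 in WT and 10.79 ± 0.02 in KO188 (SD, n = 3 each). Lepr, a marker of marrow stromal cells in vivo, lay at 5.08 to 5.26 on every array. These values lie under 6.73, a guide to unexpressed genes below which 95% of 1178 odorant and pheromone receptor genes lay. The osteoblast gene Ibsp also lay under the guide, at 5.15 to 5.25 on every array. Sp7, among the markers that rose, went from a WT mean of 6.41 under the guide to 6.77 in KO188, so its size is inexact. Of 11 leukocyte markers 1 rose, Mpeg1 (1.32, from a WT mean of 5.72 under that guide, so its size is inexact), and 0 fell. The mean log2 level of those markers ran from 6.36 to 6.38 in WT and from 6.43 to 6.48 in KO188, and Ptprc, the pan-leukocyte gene, lay at 6.12 to 6.29. Of these markers Cd68, Cd14 and Cd3e lay above the guide in both groups, and none of them passed the test. Cd68 read 8.39 ± 0.08 in WT and 8.54 ± 0.08 in KO188 (SD, n = 3 each), without overlap of the groups. Cd14 read 7.85 ± 0.10 in WT and 7.58 ± 0.15 in KO188 (SD, n = 3 each), and Cd3e read 7.39 ± 0.01 in WT and 7.37 ± 0.06 in KO188 (SD, n = 3 each). Of 5 endothelial markers Kdr passed as higher, with means of 6.40 and 6.63 that both lie under the guide, and of 2 erythroid markers 0 passed. The part of these differences in the results below was not tested. In bulk samples, fewer cells of a type and less RNA per cell cannot be told apart.

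More mitochondrial ribosomal protein genes were lower than higher in KO188, by small amounts. With limma and an adjusted p under 0.05 over all genes as the threshold, 26 of the 77 members fell (33.8%), 7 rose (9.09%) and 44 did not pass. Of all tested genes 29.8% passed, 16.5% lower and 13.3% higher. The members are bright, however: 75 of the 77 lay above the median level of all tested genes, and their 6-array mean levels ran from 7.78 to 11.80. Among the 9969 tested genes above that median 30.5% were lower and 21.5% higher, so the members' share of falls was close to that of similarly bright genes, and their share of rises was smaller. At an adjusted p under 0.01, 15 members were lower (19.5%) and 2 higher (2.60%), against 11.3% and 8.94% of all tested genes and 21.4% and 15.2% of those above the median level. The median change of the members was -0.06 on the log2 scale, against -0.01 for all tested genes and -0.02 for the brighter ones. The largest fall was by 27.1% of the WT level.

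With each array centred on its median, 37 members were lower and 2 higher, so that the share of higher calls among called members was 5.13% in place of 21.2%. That setting moves the median of all genes to -0.06, and 25.7% of all tested genes were then lower. Before centring, the array medians of the tested genes ran from 7.94 to 7.95 in WT and from 7.99 to 8.01 in KO188. The counts and the size of the members' median change thus depend on how the arrays are set to a common level. The count of rises was 4 without WT replicate 1 and 4 without WT replicate 2, while the count of falls ran from 19 to 29 over the 6 fits with 1 array left out.

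**Figure D1:**
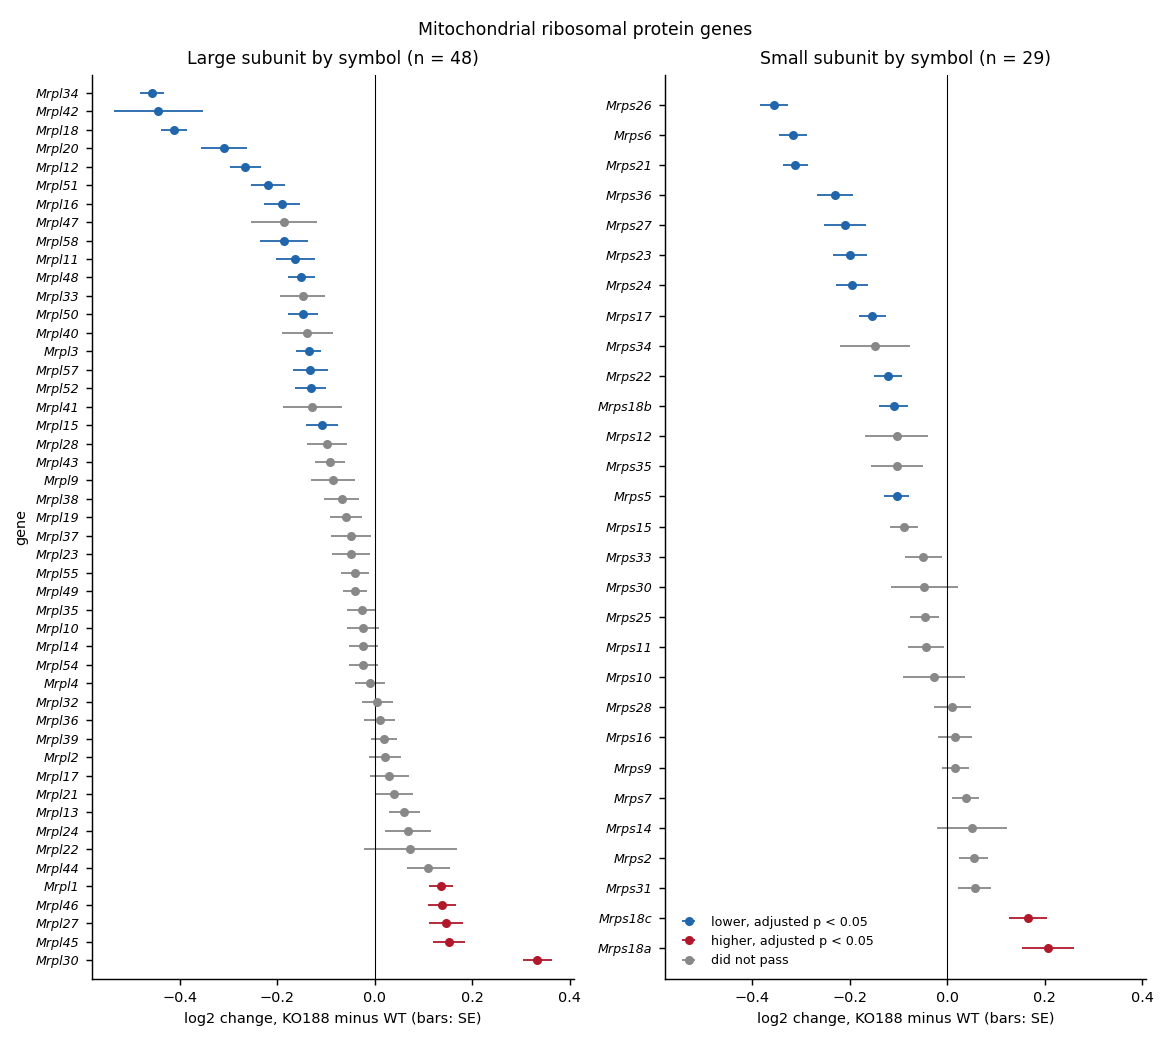
Log2 change (KO188 minus WT, horizontal axis) of each of the 77 members, large subunit genes on the left and small subunit genes on the right, ordered by change; points are limma estimates, bars their SE, and colours the call. Changes run from -0.46 for Mrpl34 to 0.33 for Mrpl30, and most points lie left of 0.

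The members were also read array by array. The mean deviation of the 77 members from their own 6-array means was 0.03, 0.02 and 0.06 on the WT arrays and -0.0048, -0.05 and -0.06 on the KO188 arrays. All KO188 arrays lay below all WT arrays, and KO188 replicate 1 lay closest to WT. For all tested genes the same mean was -0.01, -0.01 and 0.0048 in WT and 0.0018, 0.02 and -0.0023 in KO188, where the groups overlapped. In 34 members (44.2%) every KO188 value lay below every WT value, and in 7 (9.09%) every KO188 value lay above. Of all tested genes 22.7% and 18.8% did so, and of those above the median level 39.5% and 28.4%, so the members' share below was again close to that of bright genes.

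**Figure D2:**
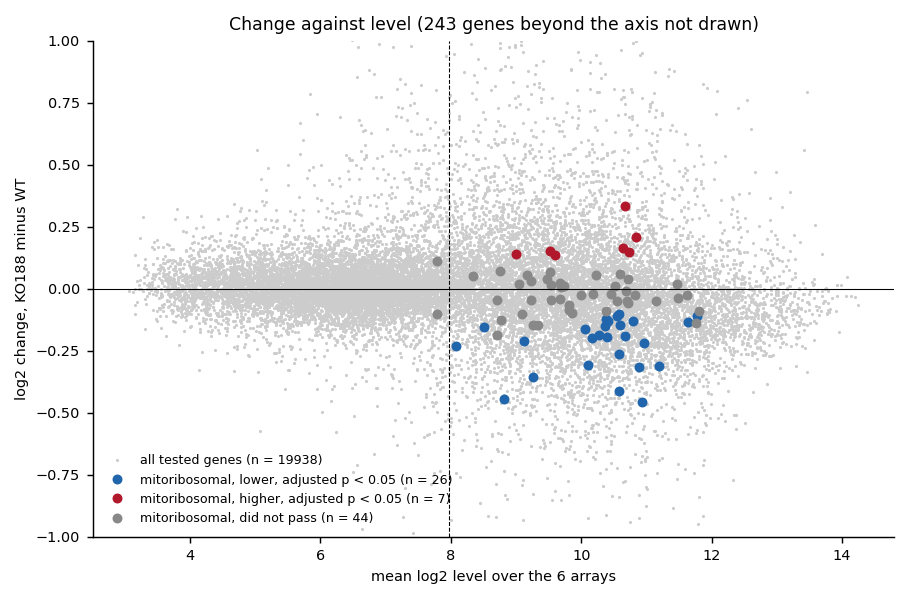
Log2 change (vertical axis) against the mean log2 level over the 6 arrays (horizontal axis) for all tested genes in grey and the 77 members in colour; the dashed line is the median level, and 243 genes with changes beyond 1 are not drawn. Of the 77 members 75 lie right of the dashed line.

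Falls outnumbered rises in both subunits, as they do among all bright genes. Of the 48 large subunit genes 15 fell and 5 rose (31.2% and 10.4%; median change -0.05), and of the 29 small subunit genes 11 fell and 2 rose (37.9% and 6.90%; median -0.09). These shares of falls lie near the 30.5% of genes above the median level. The per-array means of the large subunit were 0.03, 0.02 and 0.06 in WT and -0.0057, -0.05 and -0.05 in KO188, and those of the small subunit were 0.03, 0.03 and 0.06 in WT and -0.0033, -0.05 and -0.06 in KO188. Within each array the subunit means lay closer together than the 2 groups did, and a difference between subunits was not tested. The median of the small subunit genes was -0.05 without WT replicate 3, and that of the large subunit genes was -0.08 without KO188 replicate 1. The large subunit rises numbered 3 without WT replicate 1, and the small subunit rises numbered 0 without WT replicate 2 or 3, and 1 without WT replicate 1 or without KO188 replicate 1 or 3.

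The symbols do not follow the particle exactly. Mrps18a and Mrps30 encode proteins found in the large subunit of the mammalian mitoribosome, and Mrps36 encodes a protein now placed in the oxoglutarate dehydrogenase complex. With these moved and left out, 15 of 50 large subunit genes fell and 6 rose, and 10 of 26 small subunit genes fell and 1 rose. Split by descent instead, 13 of the 47 genes with a bacterial counterpart fell and 5 rose (median change -0.03), and 12 of the 29 without one fell and 2 rose (median -0.11). The split is not clean for the paralogs of the bacterial protein S18. Mrps18b, which fell, was counted without a counterpart, and Mrps18a and Mrps18c, which rose, with one. Whether these classes differ was not tested.

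Large subunit genes held the 3 largest falls. Mrpl34, a small protein with a bacterial counterpart, read 11.18, 11.14 and 11.17 on the WT arrays and 10.71, 10.71 and 10.71 on the KO188 arrays (log2 change -0.46, SE 0.025, adjusted p = 3.7e-05). The KO188 values were almost equal and lay far below all WT values. Mrpl18, whose bacterial counterpart binds the small RNA of the central protuberance, read 10.79, 10.77 and 10.81 on the WT arrays and 10.40, 10.38 and 10.35 on the KO188 arrays (log2 change -0.41, SE 0.026, adjusted p = 7.3e-05). Mrpl42, a mitochondria-specific protein, read 9.15, 8.87 and 9.09 on the WT arrays and 8.56, 8.49 and 8.73 on the KO188 arrays (log2 change -0.44, SE 0.091, adjusted p = 0.011). Its groups did not overlap, but its spread was the widest of the 3, and without WT replicate 3 its adjusted p was 0.053.

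Further down the large subunit, Mrpl20, an assembly-linked protein in bacteria, read 10.23, 10.25 and 10.30 on the WT arrays and 10.05, 9.90 and 9.91 on the KO188 arrays (log2 change -0.31, SE 0.048, adjusted p = 0.0033), with KO188 replicate 1 nearer to WT than the other KO188 arrays. Mrpl12, the stalk protein that draws translation factors to the ribosome and also binds mitochondrial RNA polymerase, read 10.72, 10.67 and 10.75 on the WT arrays and 10.43, 10.47 and 10.45 on the KO188 arrays (log2 change -0.26, SE 0.031, adjusted p = 9.9e-04). Mrpl51 fell by 0.22 (adjusted p = 0.0037) on its main probe set, while its second changed by -0.05 (adjusted p = 0.68 over all single-symbol probe sets). Mrpl16, whose bacterial counterpart lies near the tRNA sites, fell by 0.19 (adjusted p = 0.0087). Mrpl58, a hydrolase that frees stalled peptides, fell by 0.19 (adjusted p = 0.031). With an array left out, the adjusted p of Mrpl58 was 0.082 (no WT replicate 1), 0.10 (no WT replicate 3), 0.077 (no KO188 replicate 2) and 0.077 (no KO188 replicate 3), and the call was lost. Mrpl3, a protein close to the peptidyl transferase centre, fell by 0.14, from 11.70 ± 0.01 in WT and 11.56 ± 0.02 in KO188 (SD, n = 3 each), with adjusted p = 0.0076. The other 5 large subunit genes that fell were Mrpl48 (-0.15), Mrpl50 (-0.15), Mrpl57 (-0.13), Mrpl52 (-0.13) and Mrpl15 (-0.11), named here to complete the count; the calls of Mrpl57 (adjusted p up to 0.11), Mrpl52 (up to 0.066) and Mrpl15 (up to 0.14) were lost in several fits with 1 array left out.

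The stalk was uneven. Of its measured proteins Mrpl12 fell as above and Mrpl11 fell by 0.16 (10.12, 10.16 and 10.15 on the WT arrays and 10.02, 10.02 and 9.90 on the KO188 arrays; adjusted p = 0.024). The Mrpl11 call was lost without any 1 of the WT arrays (adjusted p = 0.059, 0.083 and 0.075). Mrpl10, on which copies of Mrpl12 sit, read 11.63, 11.63 and 11.63 on the WT arrays and 11.64, 11.63 and 11.55 on the KO188 arrays, a change of -0.02 (adjusted p = 0.64), and its groups overlapped, with the same value on all WT arrays. Mrpl54 changed by -0.02 (adjusted p = 0.63).

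Small subunit genes fell by up to 0.36. Mrps26, a mitochondria-specific protein, read 9.41, 9.43 and 9.47 on the WT arrays and 9.06, 9.10 and 9.09 on the KO188 arrays (log2 change -0.36, SE 0.028, adjusted p = 1.7e-04). Mrps6, which in bacteria pairs with the Mrps18 counterpart, read 11.03, 11.01 and 11.07 on the WT arrays and 10.71, 10.71 and 10.74 on the KO188 arrays (log2 change -0.32, SE 0.028, adjusted p = 3.0e-04). Mrps21 read 11.32, 11.35 and 11.35 on the WT arrays and 11.05, 11.02 and 11.02 on the KO188 arrays (log2 change -0.31, SE 0.025, adjusted p = 2.0e-04). In each of these genes the gap between the groups was several times the spread within them. Mrps27, an RNA-binding pentatricopeptide repeat protein, fell by 0.21 (adjusted p = 0.011), Mrps23 fell by 0.20 (adjusted p = 0.0057), and Mrps24, the counterpart of a protein at the bacterial mRNA entry, fell by 0.20 (adjusted p = 0.0044). Mrps17 fell by 0.15 (adjusted p = 0.0065) and Mrps22, mutated in a human mitochondrial disease, fell by 0.12 (adjusted p = 0.018). Mrps5 also fell (-0.10, adjusted p = 0.024); its call was lost without WT replicate 1 or 3 and without KO188 replicate 2 or 3 (adjusted p up to 0.081). Mrps36, the dehydrogenase complex gene, read 8.25, 8.19 and 8.16 on the WT arrays and 8.02, 7.97 and 7.92 on the KO188 arrays (log2 change -0.23, SE 0.036, adjusted p = 0.0035), and its other probe set fell too (-0.29).

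Some small subunit genes with well-known roles did not pass. Mrps12, the protein of the decoding centre, read 7.78, 7.78 and 7.95 on the WT arrays and 7.68, 7.84 and 7.68 on the KO188 arrays, a change of -0.10 (adjusted p = 0.30). Mrps16, lost in a human mitochondrial disease, read 9.50, 9.54 and 9.56 on the WT arrays and 9.54, 9.50 and 9.61 on the KO188 arrays, a change of 0.02 (adjusted p = 0.78). Both sets of values overlapped. Mrps30 changed by -0.05 (adjusted p = 0.67) with a KO188 SD of 0.13, the KO188 arrays reading 8.81, 8.72 and 8.54. The sign of Mrps16 turned with median centring (-0.04) and quantile normalization (-0.01), that of Mrpl10 with quantile normalization (0.0087), and those of Mrpl10 (0.0048), Mrps16 (-0.01) and Mrps30 (0.03) without KO188 replicate 3.

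Of the 7 members that rose, 5 carry large subunit symbols. Mrpl30 read 10.47, 10.51 and 10.51 on the WT arrays and 10.80, 10.82 and 10.87 on the KO188 arrays (log2 change 0.33, SE 0.030, adjusted p = 3.2e-04), a 1.26-fold rise and the largest in the family. Mrpl45, which tethers the ribosome to the inner membrane, read 9.44, 9.41 and 9.49 on the WT arrays and 9.61, 9.56 and 9.62 on the KO188 arrays (log2 change 0.15, SE 0.033, adjusted p = 0.014). Mrpl27, whose bacterial counterpart reaches toward the peptidyl transferase centre, rose by 0.15 (adjusted p = 0.020), Mrpl46 rose by 0.14 (adjusted p = 0.011), and Mrpl1, the counterpart of the protein that moves spent tRNA out of the bacterial ribosome, rose by 0.14 (adjusted p = 0.0061). In all of them the lowest KO188 value lay above the highest WT value. Mrpl30 and Mrpl1 kept their calls in all 13 alternative fits. With median centring Mrpl45 (0.10, adjusted p = 0.063), Mrpl27 (0.09, 0.066) and Mrpl46 (0.09, 0.061) were not called. The Mrpl45 call was also lost without WT replicate 1 (adjusted p = 0.052), and that of Mrpl27 without WT replicate 1 (0.062), WT replicate 2 (0.055), KO188 replicate 1 (0.056) or KO188 replicate 2 (0.063). Mrpl44, an RNase III-like protein of the large subunit, read 7.72, 7.67 and 7.82 on the WT arrays and 7.84, 7.90 and 7.82 on the KO188 arrays, a change of 0.11 (adjusted p = 0.12), and was called only without WT replicate 3 (0.15, adjusted p = 0.038).

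**Figure D3:**
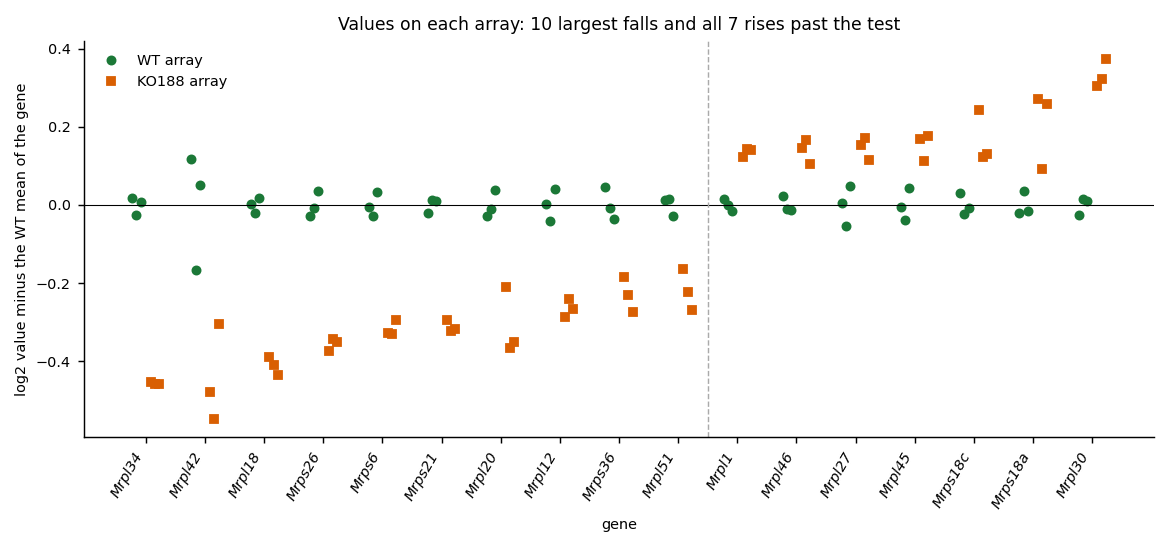
Log2 value of each array minus the WT mean of the gene (vertical axis) for the 10 members with the largest falls past the test and all 7 that rose (horizontal axis), circles for WT and squares for KO188. The groups do not overlap in any of these genes, and Mrpl42 shows the widest spread in WT.

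The 3 paralogs of the bacterial protein S18 had calls in both directions. Each takes its own place in the mitoribosome, Mrps18a in the large subunit and Mrps18b and Mrps18c in the small one. Mrps18a read 10.72, 10.78 and 10.72 on the WT arrays and 11.01, 10.83 and 11.00 on the KO188 arrays (log2 change 0.21, SE 0.053, adjusted p = 0.026), and Mrps18c, the counterpart in the bacterial position, read 10.59, 10.54 and 10.55 on the WT arrays and 10.80, 10.68 and 10.69 on the KO188 arrays (log2 change 0.17, SE 0.040, adjusted p = 0.021). Mrps18b read 11.83, 11.84 and 11.82 on the WT arrays and 11.75, 11.73 and 11.67 on the KO188 arrays (log2 change -0.11, SE 0.030, adjusted p = 0.035). Thus 2 rose and 1 fell, each without overlap of the groups, though the calls were weak. That of Mrps18a was lost without WT replicate 1 (adjusted p = 0.090), 2 (0.058) or 3 (0.090) and without KO188 replicate 1 (0.082) or 3 (0.089). That of Mrps18b was lost without any array but KO188 replicate 1 (0.064 to 0.10), and that of Mrps18c without WT replicate 2 (0.076) or 3 (0.071). With median centring Mrps18a (0.15, adjusted p = 0.073) and Mrps18c (0.11, 0.083) were not called, and with quantile normalization Mrps18b (-0.07, 0.12) was not. A test of the difference between paralogs was not run.

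The 44 members that did not pass changed by -0.19 to 0.11, 27 of them below 0. The largest of these was Mrpl47 (-0.19, SE 0.067, adjusted p = 0.088), with a WT SD of 0.02 and a KO188 SD of 0.14. It was called in 5 of 13 alternatives, among them without KO188 replicate 1 (-0.27, adjusted p = 0.0019), the KO188 array nearest to WT. Mrpl33 had the lowest adjusted p among them (-0.15, adjusted p = 0.055). In 8 of the 44 every KO188 value lay below every WT value. Such gaps without a call are not particular to the members. Among tested genes above the median level 39.5% had every KO188 value below every WT value, while 30.5% were called lower. An adjusted p above the threshold does not show that the 44 genes were equal between the groups.

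For 8 members a second single-symbol probe set was read. Its change had the sign of the main one in all 8. Mrps5 (-0.13 on the second probe set against -0.10), Mrps36 (-0.29 against -0.23), Mrpl27 (0.11 against 0.15) and Mrpl41 (-0.14 against -0.13) gave similar sizes. Mrpl51 did not: its second probe set changed by -0.05 (SE 0.082, adjusted p = 0.68 over all single-symbol probe sets) against -0.22, and with the mean of both the call was lost (-0.14, adjusted p = 0.086). Mrpl47 (-0.06 against -0.19) also differed in size, and with the mean of both it was called (-0.12, adjusted p = 0.029).

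Proteins of the mitoribosome with other names were read beside the family. Of 4 measured, Dap3 (-0.11), a GTP-binding small subunit protein, and Ptcd3 (-0.13), a pentatricopeptide repeat protein of the small subunit, fell, and Chchd1 (-0.15, adjusted p = 0.051) and Gadd45gip1 (-0.04) did not pass. The falls numbered 1 without WT replicate 1 or 3 or without KO188 replicate 2 or 3. The factors that build the particle had calls in both directions. Of 26 assembly factors 5 fell and 4 rose (19.2% and 15.4%, median 0.02). These shares lie near the 16.5% and 13.3% of all tested genes and under the 30.5% and 21.5% of those above the median level. Fastkd2, which binds the large ribosomal RNA, rose by 0.28, Mterf4, which brings an RNA methyltransferase to the large subunit, rose by 0.27, and the GTPase gene Noa1 fell by 0.26. The falls numbered 3 without WT replicate 1 or 2 or without KO188 replicate 2 or 3.

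Translation factors had calls in both directions. Of 18 measured 6 fell and 3 rose (33.3% and 16.7%, median -0.03), near the 30.5% and 21.5% of tested genes above the median level. Tufm, the elongation factor that brings charged tRNA to the ribosome, read 10.56, 10.51 and 10.52 on the WT arrays and 10.23, 10.15 and 10.11 on the KO188 arrays (log2 change -0.36, SE 0.039, adjusted p = 6.6e-04), and Guf1, a back-translocating GTPase, fell by 0.28. Other falls were Mrrf (-0.23), the ribosome recycling factor, Gfm1 (-0.18), the elongation translocase, Gatc (-0.16) and Tsfm (-0.13), the exchange factor of Tufm. The rises were Gatb (0.33), of the amidotransferase that makes glutaminyl-tRNA, the initiation factor Mtif3 (0.27) and the recycling factor Gfm2 (0.25). Of 16 mitochondrial aminoacyl-tRNA synthetases 2 fell (12.5%), Cars2 (-0.21) and Yars2 (-0.13), and 1 rose (6.25%), Fars2 (0.33). Both shares lie under the 16.5% and 13.3% of all tested genes. Only 1 fall was counted without WT replicate 1 or 3 or without KO188 replicate 2 or 3.

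Genes that keep and transcribe mitochondrial DNA fell in 4 and rose in 2 of 17 (23.5% and 11.8%, median 0.02). Of all tested genes 16.5% fell and 13.3% rose, and of those above the median level 30.5% and 21.5%. Tfb2m, the factor that opens mitochondrial promoters for the polymerase, read 10.33, 10.32 and 10.32 on the WT arrays and 9.65, 9.65 and 9.58 on the KO188 arrays (log2 change -0.69, SE 0.030, adjusted p = 1.2e-05), a larger change than that of any mitoribosomal member. Lrpprc, a stabiliser of mitochondrial mRNA, fell by 0.22, while Slirp, its binding partner, rose by 0.27. Polg2 also rose (0.24); 1 rise was counted without any 1 WT array or without KO188 replicate 1. The packaging factor Tfam changed by -0.19 (adjusted p = 0.055) and the polymerase Polrmt by 0.03 (adjusted p = 0.52).

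Of 11 measured regulators known to drive nuclear genes of mitochondria, 2 fell (18.2%), 1 rose (9.09%) and 8 did not pass, against 16.5% and 13.3% of all tested genes. Ppargc1a, the coactivator PGC-1 alpha, read 6.71, 6.60 and 6.56 on the WT arrays and 8.43, 8.24 and 8.39 on the KO188 arrays (log2 change 1.73, SE 0.063, adjusted p = 5.7e-06), a 3.33-fold rise from WT values under the 6.73 receptor guide, so its size is inexact. Gabpb1, the partner subunit of the ETS factor GABP, read 9.90, 9.88 and 9.98 on the WT arrays and 9.74, 9.70 and 9.68 on the KO188 arrays (log2 change -0.21, SE 0.036, adjusted p = 0.0047), and Nrf1, nuclear respiratory factor 1, read 9.28, 9.21 and 9.26 on the WT arrays and 9.16, 9.09 and 9.10 on the KO188 arrays (log2 change -0.13, SE 0.033, adjusted p = 0.024). Gabpa, the DNA-binding subunit of GABP, changed by -0.12 (adjusted p = 0.053), Ppargc1b by -0.14 (adjusted p = 0.15), Esrra by -0.14 (adjusted p = 0.19), Myc by -0.07 (adjusted p = 0.10), Yy1 by -0.01 (adjusted p = 0.77) and Hcfc1 by -0.0028 (adjusted p = 0.95). Gabpb2, the paralog of Gabpb1, changed by 0.09 (adjusted p = 0.081) without overlap of the groups, and Pprc1 by 0.0013 (adjusted p = 0.99). The falls numbered 1 without WT replicate 3 or without KO188 replicate 3, and 5 with median centring or quantile normalization.

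Other families of ribosomal and mitochondrial genes were read the same way. Of 59 cytosolic ribosomal protein genes 25 fell and 0 rose (42.4%; median -0.10), among them Rps29 (-0.26), Rpsa (-0.24) and Rpl7 (-0.22). Of 81 nuclear respiratory chain genes 28 fell and 2 rose (34.6% and 2.47%; median -0.06), with Uqcrh (-0.35) and Ndufb5 (-0.33) lowest; 18 fell without WT replicate 1. Of 22 import channel genes 13 fell and 0 rose (59.1%; median -0.13), among them Timm8a1 (-0.50), Tomm20 (-0.38), the receptor for incoming precursors, and Tomm7 (-0.37); 8 fell without WT replicate 1, 7 without WT replicate 3 and 7 without KO188 replicate 3. Of 11 other mitochondrial genes (chaperones, porins, a prohibitin, the Clp protease and citrate synthase) 7 fell and 0 rose, among them the porins Vdac3 (-0.20) and Vdac2 (-0.18) and citrate synthase (Cs, -0.20), an enzyme of the citric acid cycle. With median centring 41 cytosolic ribosomal and 43 respiratory chain genes were lower. These lists also differ in level from the members, whose median gene lay at percentile 78.0 of all tested genes. That percentile was 97.9 for the cytosolic ribosomal, 88.3 for the respiratory chain, 79.4 for the import channel and 98.4 for the other mitochondrial genes. Differences between these families and the mitoribosomal genes were not tested.

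Proliferation genes fell in 15 of 19 and rose in 0 (median -0.23), with Mki67 at 12.13, 12.21 and 12.17 on the WT arrays and 11.60, 11.67 and 11.62 on the KO188 arrays. The mean level of that list ran from 11.90 to 11.93 in WT and from 11.66 to 11.69 in KO188. Both this list and the mitoribosomal genes had more falls than rises in KO188, as had all tested genes above the median level (30.5% and 21.5%). The median gene of the proliferation list lay at level percentile 94.4, against 78.0 for the members. The part of proliferation in the change of the mitoribosomal genes was not tested.

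**Figure D4:**
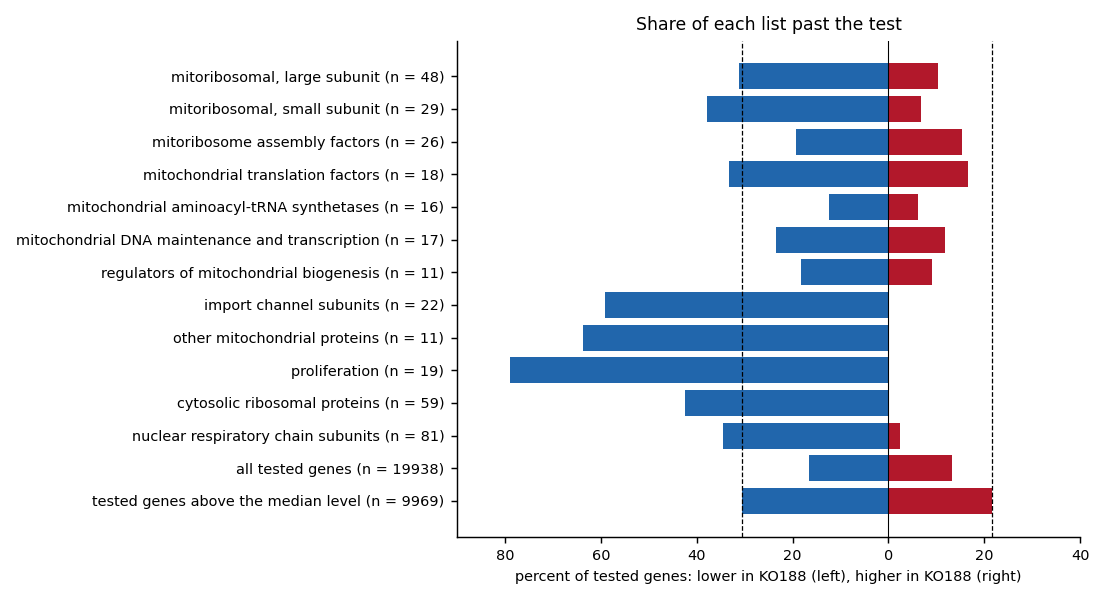
Percent of tested genes, for lists with at least 10 of them, lower in KO188 (blue, left) and higher in KO188 (red, right) at a limma adjusted p of 0.05; dashed lines are the shares among all tested genes above the median level, 30.5% lower and 21.5% higher. The large subunit bar ends near the left line and the small subunit bar past it; the cytosolic ribosomal (42.4%), import channel (59.1%), other mitochondrial (63.6%) and proliferation (78.9%) bars run further.

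Some members hold promoter motifs that the choice by symbol did not use. RefSeq promoter windows (GRCm38.p6; 250 bases before to 50 after the start) were at hand for 68 members, in 74 windows. The letters GCGCATGC, the core of the NRF1 site, stood on either strand in 10.8% of the members' windows and in 2.71% of all 32851 windows. The letters CCGGAAGT, the core of an ETS site such as GABP binds, stood in 16.2% against 3.89%, and AAGATGGCG, the core of the YY1 site, in 10.8% against 1.40%. TATAAA stood in 5 of the 74 windows, 6.76% against 13.6% of all windows. None of these differences in share was tested. At least 1 of the first 3 motifs was found in 26 of the 68 members and 2 of them in 2 members, Mrpl33 and Mrps27. The motifs do not overlap each other in these windows, except that an NRF1 core read on both strands can overlap itself. A match is a description of letters, not a bound site.

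Of the 12 members with the ETS core 8 fell, 2 rose and 2 did not pass (median change -0.14), against 17 falls and 5 rises among the 56 members with a window and no such core (median -0.05). Of the 8 members with the NRF1 core 1 fell, Mrps18b, and 0 rose (median -0.01), against 24 and 7 of the 60 without it (median -0.09), and of the 8 with the YY1 core 3 fell and 1 rose (median -0.05). These are small groups, and no difference between them was tested. The stretches before the start are printed for 6 of the 8 members with an ETS core that fell and for both that rose, to show the shared letters and their place; the capitals mark the motif, on the gene's own strand or as its reverse complement.
Mrps26 (chr2:130563712-130563756, plus strand): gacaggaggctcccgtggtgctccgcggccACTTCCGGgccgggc
Mrps27 (chr13:99344707-99344774, plus strand): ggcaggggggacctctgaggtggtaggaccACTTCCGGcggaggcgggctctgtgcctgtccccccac
Mrpl51 (chr6:125192080-125192147, plus strand): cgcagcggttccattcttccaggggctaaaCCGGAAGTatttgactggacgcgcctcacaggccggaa
Mrpl3 (chr9:105053219-105053267, plus strand): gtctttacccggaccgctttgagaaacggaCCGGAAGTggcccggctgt
Mrps22 (chr9:98601680-98601720, minus strand): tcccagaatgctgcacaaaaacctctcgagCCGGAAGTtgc
Mrpl18 (chr17:12916294-12916341, minus strand): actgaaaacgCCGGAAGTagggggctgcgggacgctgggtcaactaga
Mrpl27 (chr11:94653706-94653773, plus strand): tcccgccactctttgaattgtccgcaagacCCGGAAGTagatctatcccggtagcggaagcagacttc
Mrps18c (chr5:100798572-100798639, plus strand): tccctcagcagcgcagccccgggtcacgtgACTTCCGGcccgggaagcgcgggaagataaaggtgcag

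Mrps26, Mrps22 and Mrpl3 hold the core within 19 bases of the start, beginning at positions -15, -11 and -19. Mrps27 (-49), Mrpl27 (-55) and Mrpl51 (-90) hold it further upstream, and Mrps18c (-157) and Mrpl18 (-240) furthest. Members that fell and members that rose thus both carry it. The Mrpl18 match lies at the start of another gene, Tcp1, which begins 238 bases upstream on the other strand. The members with an NRF1 core are shown next, because all but Mrps18b among them did not pass the test; Mrpl32, Mrpl39 and Mrpl9 hold the longer palindrome in which the core reads on both strands.
Mrpl32 (chr13:14613038-14613154, minus strand): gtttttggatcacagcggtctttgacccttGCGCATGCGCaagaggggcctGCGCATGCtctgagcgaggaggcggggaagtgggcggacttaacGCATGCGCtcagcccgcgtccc
Mrpl39 (chr16:84735330-84735399, minus strand): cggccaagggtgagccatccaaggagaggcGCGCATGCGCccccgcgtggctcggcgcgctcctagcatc
Mrpl9 (chr3:94443278-94443335, plus strand): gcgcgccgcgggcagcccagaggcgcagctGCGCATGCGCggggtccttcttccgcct
Mrpl22 (chr11:58171601-58171663, plus strand): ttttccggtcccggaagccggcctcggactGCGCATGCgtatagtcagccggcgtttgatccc
Mrpl17 (chr7:105811088-105811128, minus strand): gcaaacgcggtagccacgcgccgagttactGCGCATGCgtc
Mrpl10 (chr11:97041418-97041485, plus strand): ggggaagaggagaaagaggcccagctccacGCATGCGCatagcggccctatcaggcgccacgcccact
Mrpl33 (chr5:31613909-31613950, plus strand): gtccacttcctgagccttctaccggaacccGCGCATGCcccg
Mrps18b (chr17:35916626-35916690, minus strand): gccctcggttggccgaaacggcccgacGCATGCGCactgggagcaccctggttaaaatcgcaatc

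Mrpl32 changed by 0.01 (adjusted p = 0.93), Mrpl39 by 0.02 (adjusted p = 0.66), Mrpl9 by -0.09 (adjusted p = 0.23), Mrpl22 by 0.07 (adjusted p = 0.63) and Mrpl17 by 0.03 (adjusted p = 0.64). Mrpl32 carries 4 matches between positions -87 and -22, the most of any member.

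Many members start back to back with another gene. A tested gene on the other strand starts at most 1000 bases upstream of 24 members, and for 2 of these, Mrpl46 and Mrps11, which start 42 bases apart, the neighbour is the other member: Mrpl46 rose (0.14) and Mrps11 did not pass (-0.04). In the other 22 pairs 5 neighbours fell and 6 rose. Of all tested genes 16.5% fell and 13.3% rose, and of those above the median level 30.5% and 21.5%. Both genes fell in 3 pairs and both rose in 1, while 2 pairs had opposite calls. With so many genes called, some pairs share a call without any link, and these counts were not tested against unlinked genes. Mrpl30, the member with the largest rise, starts 66 bases from Mitd1, a gene of the final step of cell division, which rose from 9.66 ± 0.05 in WT to 10.88 ± 0.05 in KO188 (SD, n = 3 each; log2 change 1.23, SE 0.040, adjusted p = 3.7e-06). Mrpl18, with the third largest fall, starts 238 bases from Tcp1, a subunit of the cytosolic chaperonin, which fell by 0.19 (adjusted p = 0.0014).

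Mrpl51 lies 614 bases from the condensin gene Ncapd2 (-0.41, adjusted p = 5.1e-05). Mrpl57 lies 76 bases from the spindle gene Ska3 (-0.20, adjusted p = 0.0024), and both neighbours fell with their members. However, the Mrpl51 fall was called on its main probe set only, and the Mrpl57 call was lost in several fits with 1 array left out. Mrps18b and Mrps5 fell while Ppp1r10 (0.20) and Zfp661 (0.17) rose. Mrpl47 lies 308 bases from the respiratory chain gene Ndufb5 (-0.33). Across the 22 pairs, which share the arrays and are not independent replicates, the changes correlated at Pearson r = 0.67 and Spearman rho = 0.64. Without the Mrpl30 and Mitd1 pair Pearson r was 0.40, and without the 2 pairs farthest from the median member change it was 0.35. Both changes were below 0 in 11 pairs and above 0 in 4.

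**Figure D5:**
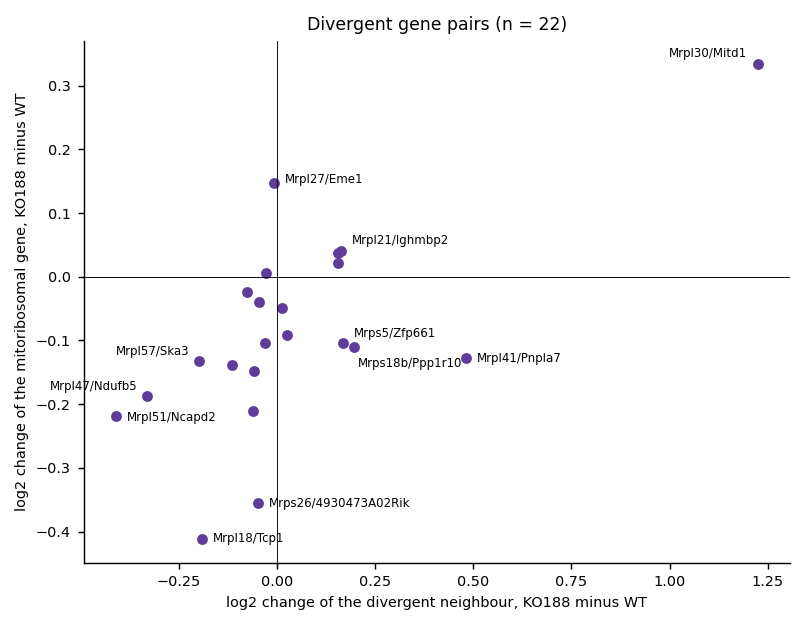
Log2 change of the member (vertical axis) against that of the gene starting back to back with it (horizontal axis) for 22 pairs, KO188 minus WT. The pair of Mrpl30 and Mitd1 stands alone at the upper right; the other points spread around the origin with more at the lower left.

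Members sit on 17 chromosomes, with at most 11 on 1 of them, chromosome 11, where 4 fell and 2 rose. Falls were found on 16 of the 17 chromosomes and rises on 5.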

How the data were processed

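Expression was measured on 6 Affymetrix arrays, 3 WT and 3 KO188, from 6 ug of total RNA each. The authors' deposited log2 values, 1 per probe set and array (35556 probe sets), were used as they stand; of tools, the submitters' processing notes list Partek, RMA and Affymetrix's Expression Console without versions. RMA normally equalises arrays and compresses dim values, so changes of dim genes can be understated. Names came from GEO's platform annotation: 21789 probe sets have 1 symbol and 1621 have several. All 77 members matched RefSeq (GRCm38.p6) by Entrez identifier.

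All 19938 genes were fitted with limma 3.58.1 in R 4.3.3 (lmFit, eBayes without trend, no covariate), with Benjamini-Hochberg adjustment over all genes and a threshold of 0.05. The fit was also run on simulated arrays with known shifts and independent noise. These held no batch or culture difference, so they do not check the calls made here. Promoters and figures were handled with Python 3.11.15 and matplotlib 3.10.9. The members, lists and rules were chosen with earlier results of these data known. Named members are, in each subunit, the 8 largest falls and 4 largest rises past the test, plus 14 genes with set roles; of other lists, the 3 largest called changes; and members whose probe sets disagree. Genes beyond these were named after their values were seen, as were the comparison with brighter genes and the divergent neighbours. Alternatives covered scaling, dim genes, probe sets, the variance model, the replicate block, each array left out, a threshold of 0.01 and the subunit assignment. The number of arrays limits the precision.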

Additional observations from a re-analysis of the deposited data

How the results depend on the processing

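Of the 26 members lower in KO188, 17 stayed lower past the threshold in all 13 alternative fits, and of the 7 higher, 2 did, Mrpl30 and Mrpl1. Of the 44 not called, 30 were called in no alternative and 15 of these also kept their sign, and 17 members changed sign in at least 1 fit, 0 of them among the called ones. Median centring gave 37 members lower and 2 higher, 24 large subunit members lower and 2 higher, 0 small subunit members higher, medians of -0.11 (all members), -0.11 (large, -0.105) and -0.14 (small), and 5126 genes lower with a median of -0.057 over all tested genes. Over all tested genes the median was -0.021 with quantile normalization. With dimmer genes left out it was -0.023, which is the median of the 9969 brighter genes only. An adjusted p of 0.01 left 15 members lower and 2 higher (large 8 and 2, small 7 and 0). Assigned by structure, 1 small subunit member was higher. Mrps16 turned to -0.036 with median centring and -0.012 with quantile normalization, and Mrpl10 to 0.0087 with the latter. With 1 array left out, Mrpl10 ran from -0.040 to 0.0048, Mrps16 from -0.012 to 0.039 and Mrps30 up to 0.026; the turned signs were all without KO188 replicate 3. Over these fits 4 to 7 members were higher (large 3 to 6, small 0 to 3), and medians ran from -0.078 to -0.038 (large) and from -0.105 to -0.047 (small). The causes were not tested. The labels do not say whether the replicate numbers pair the samples. Deviations of same-numbered arrays correlated at 0.02, 0.01 and -0.03, which shows no strong shared effect but cannot settle the pairing. With the replicate block 21 members were lower and 5 higher, 1 of them in the small subunit, and 17 respiratory chain genes were lower in place of 28.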
